A study of Mus musculus with 10 samples.

Results

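The 10 genes described here encode fatty acid elongases (Elovl1, Elovl5, Elovl6 and Elovl7), fatty acid desaturases (Fads1, Fads2, Fads3, Scd1 and Scd2) and the enoyl reductase of the elongation cycle (Tecr). They were taken by name from the 33120 genes with an exon length, by their function and not by a threshold on measured values. All 10 passed the filter on low counts in every comparison. RNA-seq was performed on inguinal white adipose tissue (iWAT) of 10 male C57BL/6 mice, 1 library per mouse. The F1 mice were 5 weeks old, had eaten the control diet (CD) since weaning, were born to mothers on the CD, and comprised 3 with fathers fed the CD, called CD offspring here, and 3 with fathers fed a low-protein diet (LPD), called pLPD offspring. The 3 mice of each F1 group came from different mothers. The F0 mice were 10 to 12 weeks old and had eaten the diet themselves from weaning, 2 the CD and 2 the LPD. No engineered allele is named for any of the 4 groups, and the pLPD offspring never ate the LPD themselves.

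Fatty acid synthase releases mainly the saturated palmitate. Elongases in the endoplasmic reticulum add carbons in a cycle of condensation, reduction, dehydration and a last reduction, and desaturases insert double bonds. In adipose tissue, Elovl6 makes stearate from palmitate and Scd1 makes oleate from stearate, which is a major fatty acid of stored triglyceride, whereas Fads1, Fads2 and Elovl5 act on polyunsaturated fatty acids from the diet.

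In the genome, 5 of the 10 genes lie on chromosome 19 of mm10. Fads3, Fads2 and Fads1 lie within 155.3 kb (chr19:10041548-10196870). Scd2 and Scd1 lie, with Scd3 and Scd4, within 204.4 kb (chr19:44203288-44407709). The genes that passed the test in F1 lie elsewhere: Elovl5 at chr9:77917364-77984519 and Elovl6 at chr3:129532355-129638495, both on the plus strand. Their upstream sequences are printed because their exon reads fell in pLPD offspring. RefSeq promoters (GRCm38.p6) were matched for 7 of the 10 genes, not for Fads1, Scd1 or Scd2. The 250 bases before the RefSeq start were searched on both strands for CACGTG, an E-box that the lipogenic factor ChREBP and other factors can bind, TCACNCCAC, a sterol regulatory element, CCAAT and GGGCGG. Each sequence is shown on the plus strand up to the base before the gene starts in the deposited files, with matches in capitals, at chr9:77917115-77917363 for Elovl5 and chr3:129532136-129532354 for Elovl6.
Elovl5: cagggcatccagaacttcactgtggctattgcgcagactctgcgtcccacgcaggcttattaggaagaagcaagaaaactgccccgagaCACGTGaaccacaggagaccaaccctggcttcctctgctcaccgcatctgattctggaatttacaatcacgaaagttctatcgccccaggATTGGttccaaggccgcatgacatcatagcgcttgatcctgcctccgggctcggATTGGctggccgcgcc
Elovl6: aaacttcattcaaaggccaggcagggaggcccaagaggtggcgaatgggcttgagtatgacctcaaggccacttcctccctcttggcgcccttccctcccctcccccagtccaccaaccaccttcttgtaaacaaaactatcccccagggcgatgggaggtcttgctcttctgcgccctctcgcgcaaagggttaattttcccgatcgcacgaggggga
The Elovl5 window held 1 CACGTG, 161 to 156 bases before the RefSeq start, and 2 CCAAT boxes, read as ATTGG on this strand. The Elovl6 window held none of the 4 motifs. Of 32851 promoter windows of the same length, 6.02% held CACGTG, 1.05% TCACNCCAC, 33.85% CCAAT and 32.74% GGGCGG. The matches are letters in a window, and no binding was measured here.

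Between 6351075 and 10044546 reads per library were counted on exons, and the 10 genes held at most 4.63% of them. Levels are given as counts per 1000000 exon reads (CPM) after TMM normalization. Before that normalization, 3 reads correspond to 0.299 to 0.472 per 1000000 exon reads, a floor that covers counting error only. The third library of CD offspring stood apart from the other two: over all genes, its variance from them was 12.6 and 13.1 times that of counting error, against 4.59 between the other two. The first pLPD library was also farther from the other two (8.70 and 9.73 against 4.81), with the lowest exon share (39.3% against 45.4%) and the highest share of mitochondrial rRNA (18.2%), and the 2 LPD mice of F0 differed by 10.8 times counting error. For the 10 genes, results that rest on these mice are given with and without them. Other pathway genes, regulators and markers are given with all mice only. Exons held 49.2% to 51.2% of the gene reads in CD offspring, 39.3% to 45.4% in pLPD offspring and 51.4% to 54.7% in F0. Mitochondrial rRNA held 9.29% to 10.5% in CD offspring and 13.5% to 18.2% in pLPD offspring, and in F0 9.59% to 9.85% on the CD and 10.9% to 12.4% on the LPD. Its part in the results was not tested. None of the 10 listed adipocyte markers was at 0 in any library. In bulk tissue, fewer cells of a type and less RNA per cell cannot be told apart.

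Levels were compared between genes per kb of exon. Scd1, the main stearoyl-CoA desaturase of adipocytes, stood far above the other 9 genes in every group, with group means of 5911 to 8521 CPM per kb. It made up 92.6% to 95.7% of the summed level of the 10 genes in each mouse. In CD offspring, Scd2, its close relative, followed with 217 ± 72.5 CPM per kb (SD, n = 3) and Elovl6 with 159 ± 48.4, and the ranges of these neighbours overlapped. Tecr and Fads3 followed with 65.5 ± 9.14 and 59.1 ± 6.25, also overlapping. Below them came Elovl5 at 35.3 ± 1.12, Fads1 at 17.4 ± 1.78 and Elovl1 at 8.55 ± 0.421, none of whose ranges overlapped the gene above. Fads2 at 7.73 ± 2.86 overlapped Elovl1, and Elovl7, at 0.232 ± 0.0762, was last in all 4 groups. In pLPD offspring, Fads3 (61.2 ± 8.60 CPM per kb, n = 3) and Elovl6 (59.7 ± 6.33) overlapped and came after Scd1 and Scd2. In F0 mice on the CD, Elovl6 (103 ± 3.15, n = 2) came after Scd1, followed by Scd2 (90.0 ± 18.1), again overlapping.

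**Figure D1:**
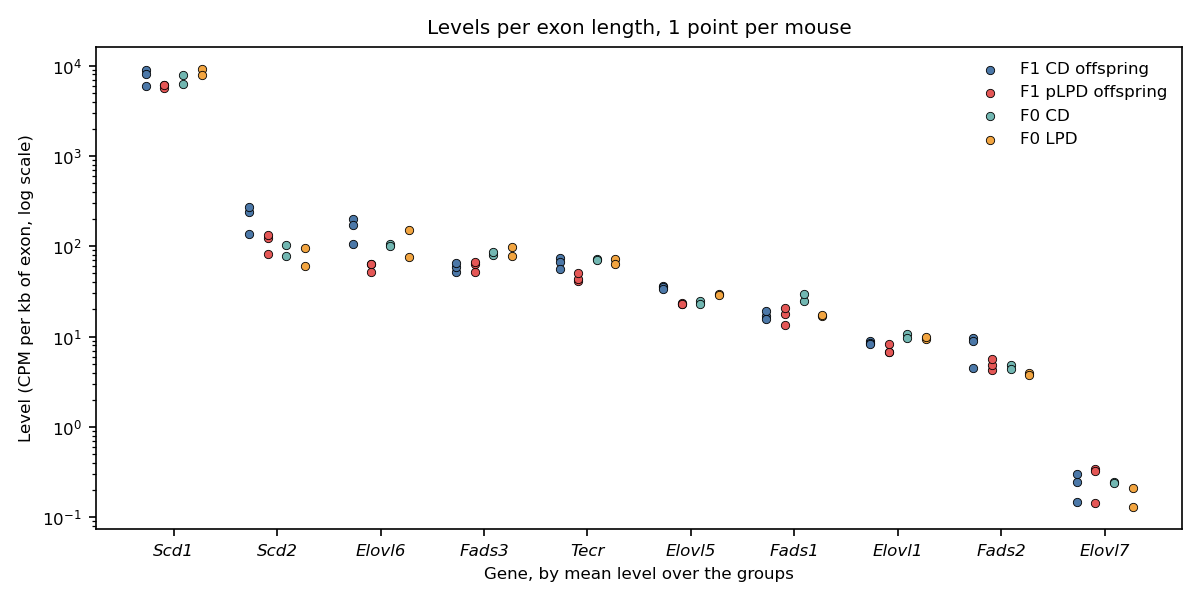
Levels of the 10 genes in CPM per kb of exon on a log scale, 1 point per mouse, coloured by group, with genes ordered by their mean over the 4 groups. Scd1 stands at 5660 to 9198 CPM per kb and every other gene below 275 in all 10 mice.

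The paternal diet was examined first in F1. Elovl5 and Elovl6 fell in pLPD offspring, and none of the 10 genes rose. Over all 14049 genes tested, 1.02% passed the test lower and 0.142% higher. In 4 of the 10 genes (Elovl5, Elovl6, Scd2 and Tecr) every pLPD mouse lay below every CD offspring, as was so for 10.9% of all genes tested, and 0 lay above, against 9.21%. The log2 fold change was negative in 7 of the 10 genes, against 48.6% of all genes, with a median of −0.45 against 0.01. With all reads on genes as library size, which shifted the median of all genes by −0.162, Fads1 and Fads3 turned negative too (−0.14 and −0.0948). At an unadjusted p under 0.05, 6 of the 10 were lower and 0 higher, against 8.76% and 6.57% of all genes. Because these genes were picked with earlier results of these libraries known, the counts are a description of these mice.

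Elovl6, the elongase of saturated and monounsaturated C16 acyl chains, was measured at 1275, 1118 and 675 CPM in the 3 CD offspring and at 411, 337 and 404 CPM in the 3 pLPD offspring. The groups did not overlap, although the third CD mouse was nearer to the pLPD mice than to the other two. Elovl6 fell from 1022 ± 311 to 384 ± 40.7 CPM (SD, n = 3 each), a log2 fold change of −1.40 (SE 0.19, adjusted p = 0.00868, edgeR quasi-likelihood test). Elovl5, which elongates polyunsaturated acyl chains, was measured at 128, 125 and 120 CPM in CD offspring and at 82.1, 81.5 and 81.8 CPM in pLPD offspring. The spread within each group was small beside the gap between them. In pLPD offspring, with 525 to 601 exon reads on Elovl5 per mouse, counting error alone would give a wider spread than that seen. Their close values are thus no measure of how alike these mice were. Elovl5 fell by 0.59 on the log2 scale (SE 0.08, adjusted p = 0.00735), from 124 ± 3.94 to 81.8 ± 0.283 CPM.

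The other elongases did not pass the test. Elovl1, which makes very long saturated chains, ranged from 22.3 to 24.6 CPM in CD offspring and from 18.4 to 22.4 in pLPD offspring (log2 fold change −0.23, SE 0.13, adjusted p = 0.433). Elovl7 had 5 to 14 exon reads per library over all 10 mice, and a difference such as its log2 fold change of 0.22 (SE 0.48) was not detectable at this depth. Tecr, which catalyses the last reduction of each elongation cycle for all elongases, was measured at 162, 146 and 122 CPM in CD offspring and at 89.4, 94.4 and 110 in pLPD offspring. The groups did not overlap, and the log2 fold change of −0.54 (SE 0.12) missed the threshold at an adjusted p of 0.0512.

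Among the desaturases of saturated chains, Scd2 was measured at 1308, 1498 and 739 CPM in CD offspring and at 447, 677 and 732 CPM in pLPD offspring. The third CD mouse was only just above the highest pLPD mouse, and the log2 fold change was −0.92 (SE 0.24, adjusted p = 0.0908). Scd1 was measured at 42837, 39257 and 29122 CPM in CD offspring and at 29233, 27370 and 29147 CPM in pLPD offspring. The groups overlapped because the third CD mouse lay among the pLPD mice, and the log2 fold change was −0.37 (SE 0.16, adjusted p = 0.319). Both genes are similar in sequence, but over the libraries 97.3% of Scd1 reads and 97.2% of Scd2 reads were uniquely placed.

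Among the Fads genes, Fads2, the delta-6 desaturase, was measured at 14.7, 13.5 and 6.72 CPM in CD offspring and at 6.43, 7.32 and 8.42 CPM in pLPD offspring. The third CD mouse again lay among the pLPD mice (log2 fold change −0.65, SE 0.28, adjusted p = 0.289). Fads1, the delta-5 desaturase, had the same mean in both groups within its spread, 60.0 ± 6.15 and 60.1 ± 12.7 CPM (SD, n = 3 each), and its log2 fold change was 0.01 (SE 0.14, adjusted p = 0.985). Fads3 ranged from 172 to 212 CPM in CD offspring and from 168 to 221 in pLPD offspring (0.06, SE 0.12, adjusted p = 0.854).

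**Figure D2:**
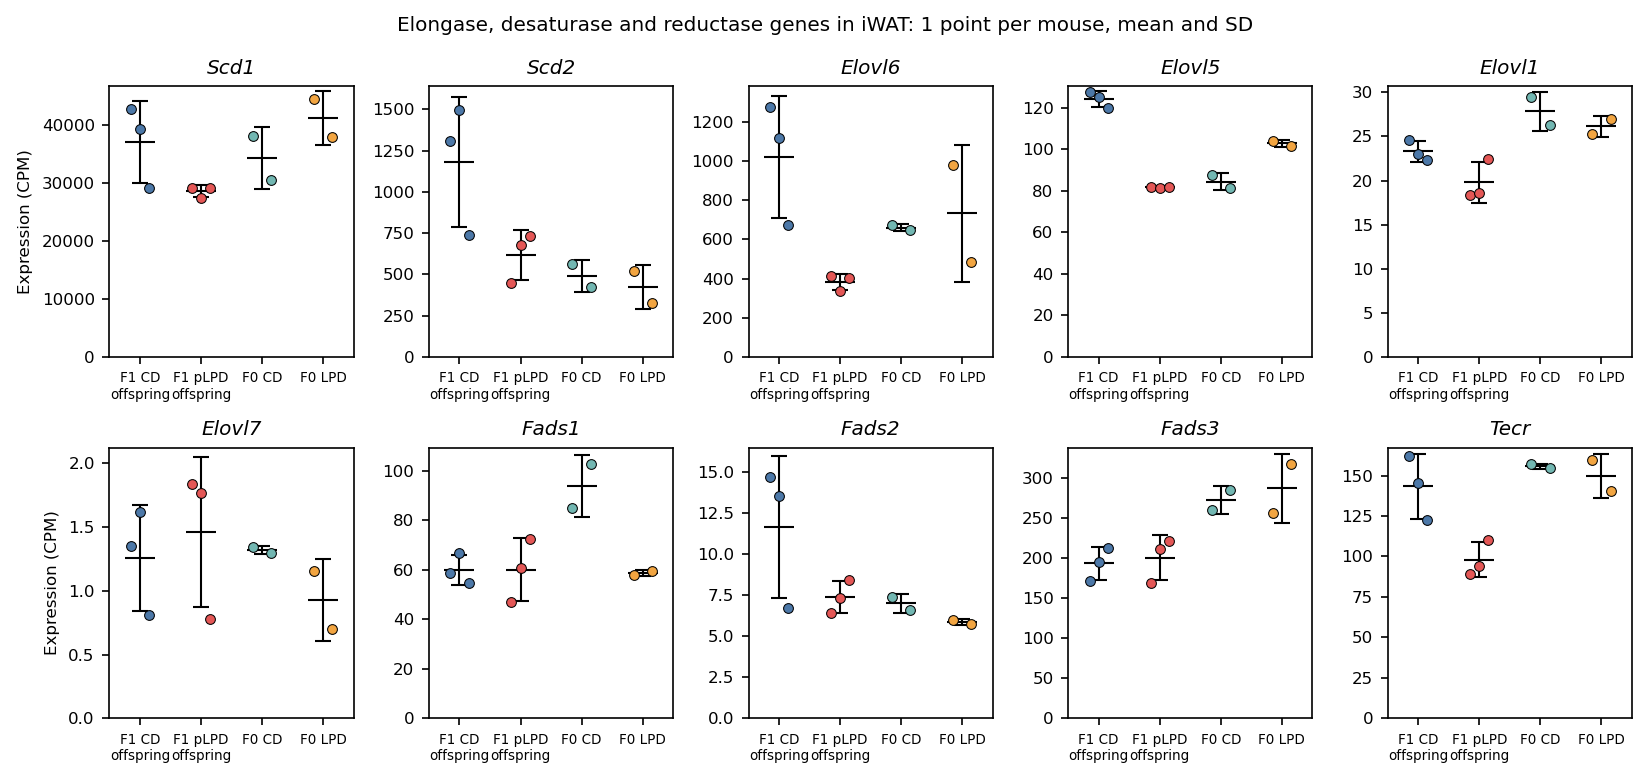
Expression in CPM of each gene, 1 point per mouse, with the mean (horizontal line) and SD (bars) of the F1 CD offspring, the F1 pLPD offspring and the F0 mice on the CD or LPD. Elovl5, Elovl6, Scd2 and Tecr are lower in all 3 pLPD mice than in all 3 CD offspring, and the third CD offspring is the lowest of its group for every gene except Fads3.

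Without the third library of CD offspring, 6 genes passed the test, all lower in pLPD offspring: Elovl6 (log2 fold change −1.63, adjusted p = 2.38e-05), Elovl5 (−0.62, adjusted p = 0.00288), Scd2 (−1.17, adjusted p = 0.00316), Tecr (−0.64, adjusted p = 0.00733), Fads2 (−0.92, adjusted p = 0.031) and Scd1 (−0.51, adjusted p = 0.0345). Over all 14322 genes in that fit, 2.58% passed lower and 0.978% higher. Without the first pLPD library, Elovl6 (−1.45, adjusted p = 0.0282) and Elovl5 (−0.59, adjusted p = 0.0207) passed. Over all genes in that fit, 0.307% passed lower and 0.0559% higher. Without the first CD library, or without the second pLPD library, 0 of the 10 passed, with Elovl6 at −1.22 (adjusted p = 0.0539) and −1.32 (adjusted p = 0.0634), and Elovl5 at −0.57 (adjusted p = 0.0604) and −0.60 (adjusted p = 0.0542). Over all genes, 0.119% passed lower and 0.007% higher without the first CD library, and 0.139% and 0.0279% without the second pLPD library. With DESeq2, Tecr also passed (adjusted p = 0.00337), as it did with unique exon reads in edgeR (−0.53, adjusted p = 0.0323). Tecr passed in 7 of 11 alternatives that left out no mouse, and Elovl5 and Elovl6 in 10 each. With 1 mouse left out, Tecr passed in 2 of 6 fits, and Elovl5 and Elovl6 in 4 each. When the exon share of each library was added to the fit as a covariate, Elovl6 was at −1.61 (SE 0.37) and Elovl5 at −0.60 (SE 0.15), with adjusted p of 0.227 and 0.274. In that fit Scd2 moved to −0.22 (adjusted p = 0.921), Tecr to −0.39 (adjusted p = 0.695), Fads1 to 0.57 (adjusted p = 0.473) and Fads3 to 0.48 (adjusted p = 0.47). For single genes, the exact two-sided permutation test of 3 mice against 3 cannot give less than 0.1, the value of Elovl5, Elovl6, Scd2 and Tecr.

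Ratios within a library do not depend on its scaling. The level of Elovl6 as a percent of Scd1, both per kb, was 2.24, 2.14 and 1.74 in CD offspring and 1.06, 0.927 and 1.04 in pLPD offspring. The groups did not overlap, also with the third CD mouse. The ratio of Elovl6 to Elovl5 per kb was 5.47, 4.90 and 3.08 in CD offspring and 2.74, 2.27 and 2.70 in pLPD offspring, so the saturated-chain elongase was lower relative to the polyunsaturated-chain elongase in every pLPD mouse. The ratio of Scd1 to Scd2 per kb was 29.5 to 44.5 in CD offspring and 44.9 to 73.8 in pLPD offspring, with the lowest pLPD value next to the highest CD value. No test was run on these ratios.

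The deposited files also count reads across exon-exon junctions, which come from spliced RNA, and reads on introns, which come mostly from unspliced RNA. With junction reads, 4 genes passed the test in F1, all lower: Elovl6 (log2 fold change −1.44, SE 0.18, adjusted p = 0.000237), Scd2 (−1.04, SE 0.18, adjusted p = 0.00363), Tecr (−0.51, SE 0.12, adjusted p = 0.0342) and Elovl5 (−0.61, SE 0.14, adjusted p = 0.0367). Over all 9876 genes in that fit, 1.15% passed lower and 0.192% higher. With intron reads, 0 of the 10 passed in edgeR, against 0.26% lower and 0.163% higher of 13456 genes. The intron value of Elovl6 was −0.52 (SE 0.13, adjusted p = 0.11, edgeR), from a fit normalized on intron reads. Intron CPM are given on the scale of the exon reads instead, so they need not match the fitted values. On that scale Elovl6 introns were at 203 ± 23.6 in CD offspring and 149 ± 17.7 in pLPD offspring (SD, n = 3 each). Scd1 intron reads went the other way, at 136, 108 and 265 CPM in CD offspring and 189, 338 and 325 CPM in pLPD offspring (0.69, adjusted p = 0.341), with only 937 to 2494 reads per library over all mice. The third CD mouse, lowest of its group on the exons of Elovl6 and Scd1, was the highest of its group on the introns of both. The difference between exon and intron fold changes was not tested, and the exon share moved with the groups.

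**Figure D3:**
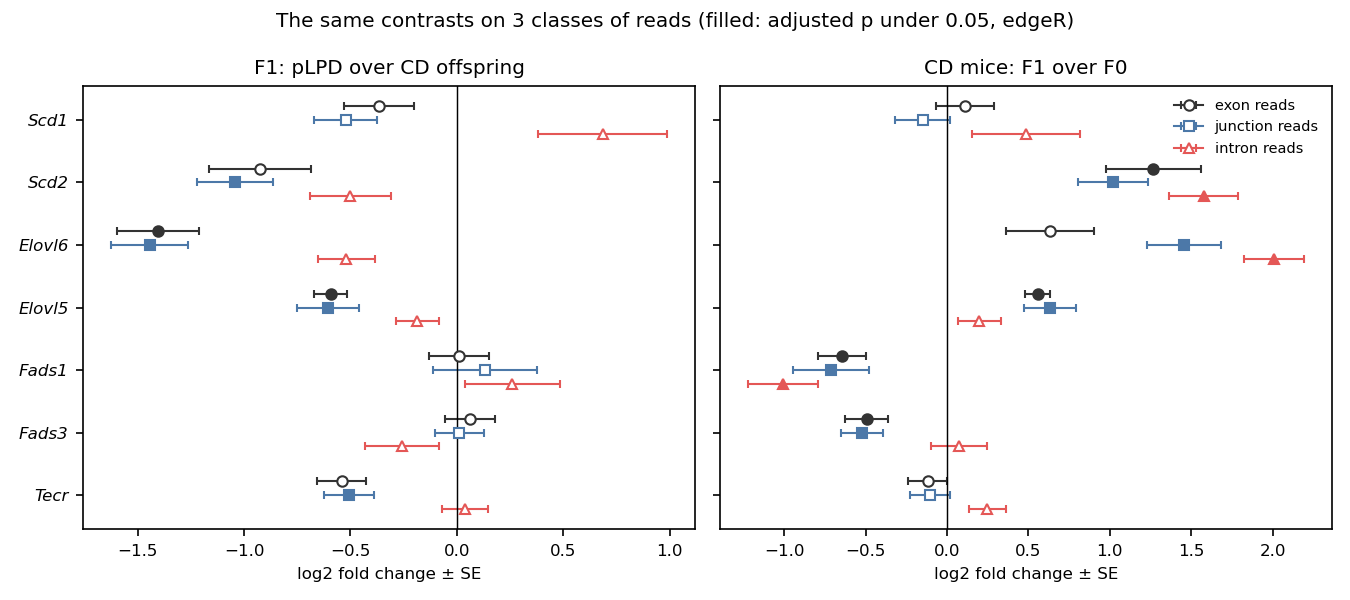
Log2 fold changes with SE from exon, junction and intron reads for 7 of the genes, in pLPD offspring over CD offspring (left) and in F1 over F0 among mice on the CD (right), filled where the adjusted p passed the threshold. On the left, the junction values of Elovl6 (−1.44) and Elovl5 (−0.61) lie beside the exon values (−1.40 and −0.59), whereas the intron values (−0.52 and −0.19) lie nearer to 0, and on the right Elovl6 ranges from 0.63 on exons to 2.01 on introns.

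In F0, where the mice ate the LPD themselves, Fads1 fell and none of the 10 genes rose, against 1.32% of 14581 genes lower and 1.18% higher. The median log2 fold change of the 10 was −0.07, against 0.00035 over all genes. The groups of 2 did not overlap for 3 genes lower and 1 higher in LPD mice, against 23.6% and 22.8% of all genes, so such a separation is common at this size, and the exact permutation test cannot give less than 0.333.

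Fads1 was measured at 85.0 and 103 CPM in the CD mice and at 58.0 and 59.5 CPM in the LPD mice. It fell by 0.68 on the log2 scale (SE 0.11, adjusted p = 0.0191). The call was lost without the second CD mouse (−0.53, adjusted p = 0.0553) or without either LPD mouse (−0.66 and −0.70, adjusted p = 0.0511 and 0.0747), and in 1 fit of all 4 groups (adjusted p = 0.0683). Junction reads gave −0.76 (adjusted p = 0.0446) and intron reads −0.97 (adjusted p = 0.0503).

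Elovl5 was measured at 87.4 and 81.5 CPM in the CD mice and at 104 and 102 CPM in the LPD mice, a log2 fold change of 0.29 (SE 0.09, adjusted p = 0.131). Elovl6 was measured at 675 and 646 CPM in the CD mice and at 981 and 486 CPM in the LPD mice. The 2 LPD mice lay on opposite sides of the CD mice, and the fitted value of 0.15 (SE 0.26, adjusted p = 0.854) turned to −0.45 without the first LPD mouse and to 0.57 without the second. The levels of Scd1 (38171 and 30519 CPM against 44483 and 37933) and Scd2 (561 and 421 against 517 and 327) overlapped between the diets, with log2 fold changes of 0.26 (SE 0.27, adjusted p = 0.725) and −0.22 (SE 0.21, adjusted p = 0.712). With the exon share as a covariate, Scd2 was at −0.76 and passed (adjusted p = 0.00118, edgeR), and Fads1 passed too (−0.52, adjusted p = 0.00912). Over all 14581 genes in that fit, 2.43% passed lower and 3.29% higher. With 2 mice per diet and a covariate, little is left there to measure the spread between mice. Fads2 was at −0.25 (SE 0.21), Fads3 at 0.08 (SE 0.12), Tecr at −0.05 (SE 0.10), Elovl1 at −0.09 (SE 0.12) and Elovl7 at −0.49 (SE 0.47).

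**Figure D4:**
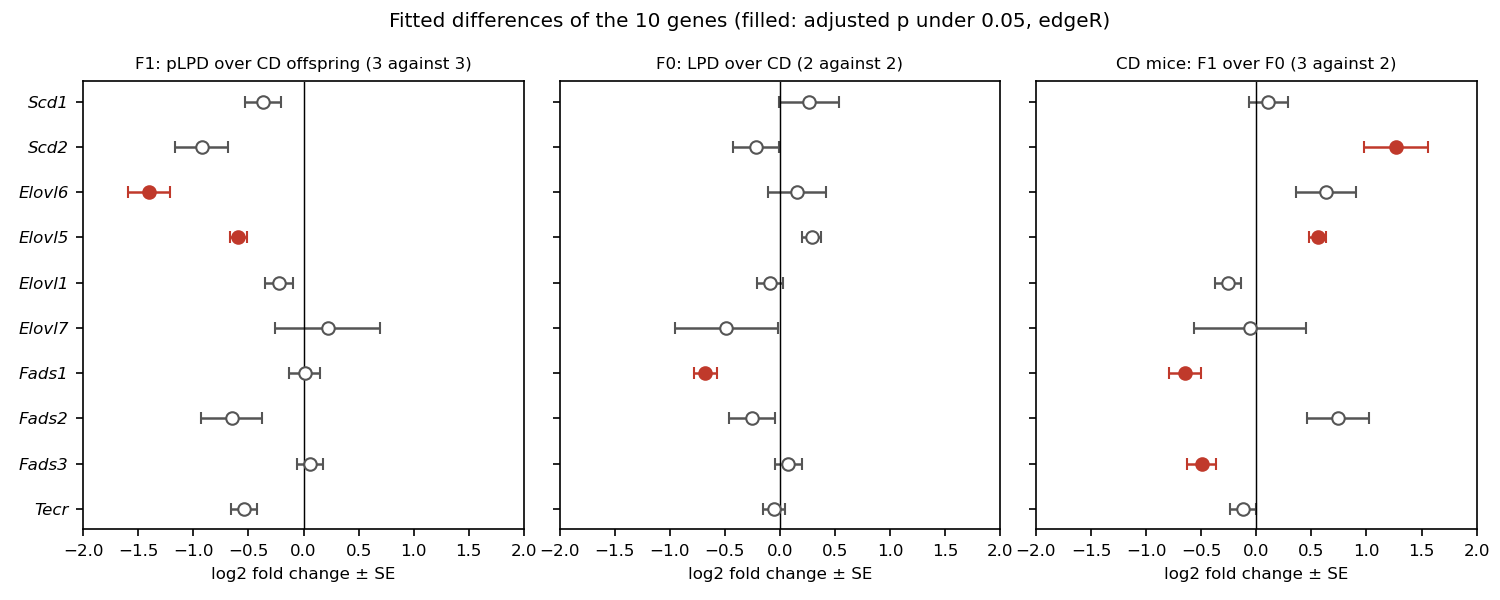
Log2 fold change with SE of the 10 genes for the paternal LPD in F1 (left), the LPD in F0 (middle) and F1 over F0 among mice on the CD (right), filled where the adjusted p passed the threshold. Elovl6 (−1.40) and Elovl5 (−0.59) are filled on the left, Fads1 (−0.68) in the middle, and Scd2 (1.27), Elovl5 (0.56), Fads1 (−0.65) and Fads3 (−0.49) on the right.

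The difference between the diet effects of the generations was tested as an interaction in a fit of all 10 libraries. Elovl5 was the gene that passed, with an effect in F1 that was 0.89 lower on the log2 scale than in F0 (log2 difference −0.89, SE 0.11, adjusted p = 0.00541), against 0.893% of 15111 genes with a negative and 0.357% with a positive difference. Its call held without each of the 10 mice in turn (adjusted p 0.00261 to 0.0464). Elovl6 was at −1.56 (SE 0.38, adjusted p = 0.0646), and passed without the third CD offspring (−1.78, adjusted p = 0.0121) or without the second LPD mouse of F0 (−1.98, adjusted p = 0.0365). Fads1 was at 0.68 (SE 0.21, adjusted p = 0.163), and at 0.83 without the first pLPD library (adjusted p = 0.0336). Scd1 was at −0.64 (SE 0.25, adjusted p = 0.304), Scd2 at −0.72 (SE 0.40, adjusted p = 0.494) and Tecr at −0.50 (SE 0.17, adjusted p = 0.214). For Elovl6 and Fads1, which passed in 1 generation each, the effects were thus not shown to differ with all 10 mice. With reads on the whole gene, introns included, Elovl5 was at −0.55 (adjusted p = 0.0688).

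The mice on the CD were compared between generations in the same fit. Generation, age and the set of libraries coincide there and cannot be told apart, and the mice are the controls of the diet comparisons above. Of the 10 genes, 2 were higher and 2 lower in F1, against 10.1% and 8.78% of 15111 genes. The groups did not overlap for 3 genes higher and 3 lower, against 25.2% and 24.7% of all genes. Scd2 was higher by 1.27 (SE 0.29, adjusted p = 0.00931), with 739 to 1498 CPM in F1 and 421 and 561 in F0. Elovl5 was higher by 0.56 (SE 0.08, adjusted p = 0.000417), Fads1 lower (−0.65, SE 0.15, adjusted p = 0.0085) and Fads3 lower (−0.49, SE 0.13, adjusted p = 0.0203). The ratio of Scd1 to Scd2 per kb was 29.5 to 44.5 in these F1 mice and 76.8 and 81.7 in these F0 mice. Without the third CD offspring, 6 genes passed, with Fads2 (1.01, adjusted p = 0.0033) and Elovl6 (0.85, adjusted p = 0.0226) also higher in F1, against 10.1% higher and 9.15% lower of 15122 genes. Without the second F0 mouse on the CD, Elovl5 was at 0.50. That fit rests on a single F0 mouse on the CD, so its calls are not read for single genes.

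For Elovl6, this comparison depended on which reads were counted. Exon reads gave 0.63 (SE 0.27, adjusted p = 0.123), junction reads 1.46 (SE 0.23, adjusted p = 9.53e-05) and intron reads 2.01 (SE 0.19, adjusted p = 1.36e-05). Per 100 exon reads, Elovl6 had 3.52 to 4.46 junction reads in CD offspring, 3.40 to 4.42 in pLPD offspring, 2.24 to 2.29 in F0 on the CD and 2.21 to 2.41 in F0 on the LPD. All 6 F1 mice lay above all 4 F0 mice. Scd1 had the reverse order, with 7.69 to 9.44 junction reads per 100 exon reads over the F1 mice and 9.89 to 10.6 over the F0 mice. Whether the transcripts of Elovl6 or the libraries differed between the generations was not tested.

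The other genes of the pathway were counted as a list of 16, of which 12 passed the filter. They comprise the remaining elongases and desaturases, the other enzymes of the elongation cycle and the cytochrome b5 system that passes electrons to desaturases. In F1, 0 of the 12 passed the edgeR test, with a median of −0.16. At an unadjusted p under 0.05, 3 were lower and 0 higher, against 8.76% and 6.57% of all genes. Hsd17b12, the ketoacyl reductase of the cycle, ranged from 282 to 314 CPM in CD offspring and from 228 to 248 in pLPD offspring, without overlap (log2 fold change −0.32, SE 0.08, adjusted p = 0.0943). In F0 it ranged from 178 to 204 CPM on the CD and from 222 to 224 on the LPD (0.23, SE 0.10, adjusted p = 0.318). Its interaction, −0.56 (SE 0.13), missed the threshold at an adjusted p of 0.0578. The dehydratases of the cycle were at −0.19 (Hacd1), −0.12 (Hacd2), 0.01 (Hacd3) and −0.24 (Hacd4) in F1, with adjusted p between 0.501 and 0.989. Hacd4 lies outside the naming rule and was added after its values were seen, and its groups, like those of Hacd2, did not overlap. Cyb5b, an outer mitochondrial membrane cytochrome b5, was at −0.69 (SE 0.17, adjusted p = 0.0711). Its level in the third CD mouse, 377 CPM, was nearer to the pLPD mice (326 to 348) than to the other CD offspring (612 and 655).

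In F0, 1 gene of this list passed, against 1.18% of all genes higher and 1.32% lower. Elovl3, an elongase of brown and beige fat, rose from 5.37 and 1.50 CPM to 27.0 and 16.1 (log2 fold change 2.69, SE 0.42, adjusted p = 0.0189). The summed level of 6 brown and beige adipocyte markers was 130 to 224 CPM in F0 on the CD and 566 to 622 on the LPD. Of the 6, 3 rose past the threshold, and 1 was lower (−0.40) and did not pass. Their part in the Elovl3 result was not tested. In F1, Elovl3 ranged from 26.6 to 61.4 CPM in CD offspring and from 9.09 to 51.9 in pLPD offspring. Between the CD mice, Elovl3 (3.60), Hsd17b12 (0.66) and Cyb5b (0.55) were higher in F1 than in F0 and Cyb5a (−0.49) was lower, all past the threshold. Over all genes, 10.1% passed higher and 8.78% lower there. No interaction passed for this list in edgeR, with 5 lower and 0 higher at an unadjusted p under 0.05, against 7.58% and 4.91% of all genes.

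Of 12 regulators of lipogenic genes, all tested, 1 passed in F1. Insig1, which holds the SREBP precursors in the endoplasmic reticulum and is itself an SREBP target, was measured at 543, 542 and 563 CPM in CD offspring and at 342, 421 and 385 CPM in pLPD offspring. It fell by 0.51 (SE 0.10, adjusted p = 0.0385). Srebf1, which encodes SREBP-1, was at −0.26 (SE 0.16, adjusted p = 0.468) with overlapping groups. Mlxipl, which encodes ChREBP, ranged from 230 to 298 CPM in CD offspring and from 152 to 214 in pLPD offspring (−0.55, SE 0.13, adjusted p = 0.0703). In F0, Mlxipl was at −0.59 (SE 0.14, adjusted p = 0.0756), Srebf1 at −0.27 (SE 0.11, adjusted p = 0.303), and Ppara, a receptor that drives fatty acid oxidation, rose (1.12, SE 0.19, adjusted p = 0.0249). Between the CD mice, Mlxipl was higher (0.60, adjusted p = 0.0209) and Pparg, the master regulator of adipocytes, lower (−0.38, adjusted p = 0.042) in F1.

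Markers of the cells in the tissue were counted beside these results. In F1, 0 of 10 adipocyte markers passed in edgeR, with 0 at an unadjusted p under 0.05, and their summed level was 22059 to 24905 CPM in CD offspring and 23438 to 28649 in pLPD offspring. Of 6 macrophage markers, 4 fell, with sums of 952 to 1167 CPM against 671 to 756. Of 4 epithelial markers tested, 2 fell, with sums of 10.5 to 14.9 CPM against 1.53 to 4.88 and 1 of the 6 listed at 0 in every pLPD library. All 4 progenitor markers were lower at an unadjusted p under 0.05 and 0 passed the edgeR test, with sums of 414 to 483 CPM in CD offspring and 314 to 394 in pLPD offspring. Of 6 brown and beige markers, 1 rose in F1 and 4 had negative values that did not pass. Their sums were 1026 to 1548 CPM in CD offspring and 652 to 2082 in pLPD offspring. In F0, 5 of 8 skeletal muscle markers fell, with sums of 1440 to 2196 CPM on the CD and 699 to 958 on the LPD. So did 1 of 10 adipocyte and 1 of 6 macrophage markers, whereas 3 of 6 brown and beige and 1 of 6 lymphocyte markers rose. Between the CD mice, all 8 skeletal muscle markers were lower in F1 (85.0 to 169 CPM against 1440 to 2196), as were 5 of 10 adipocyte markers. Higher in F1 were 3 of 6 brown and beige markers (1026 to 1548 CPM against 130 to 224). So were 2 of 4 endothelial, 2 of 4 tested epithelial and 1 of 4 progenitor markers. Over all genes, 10.1% passed higher and 8.78% lower between the CD mice, 0.142% and 1.02% in F1, and 1.18% and 1.32% in F0. The part of the markers in the results for the elongases and desaturases was not tested.

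Genes with the pattern most like a member's were found by the root mean square difference of log2 CPM, each gene centred on its mean over the 10 libraries. For Elovl6 they included Gata6 (0.285), Mapk8ip1 (0.302) and Arhgap20 (0.345), against a median of 0.654 over 9938 genes. For Scd1 they were Lrrc32 (0.0978), Slc37a2 (0.112), Fgd4 (0.114), Rnasek (0.129) and Cops9 (0.130), against a median of 0.309. For Fads2 they were C130074G19Rik (0.120), Dhx32 (0.132), Dhcr7 (0.149), Sorl1 (0.160) and Lss (0.168), against a median of 0.461. Dhcr7 and Lss encode enzymes of cholesterol synthesis. No other member of the 10 was among these genes.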

How the data were processed

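RNA was extracted with TRIZOL, depleted of rRNA, made into strand-specific libraries (NEBNext Ultra Directional kit) and sequenced as paired 36-base reads. Mapping to mm10 and counting were done by the authors in CLC Genomics Workbench, and the strand setting of the counting is not given in the sources used here. The deposited counts give reads on the exons, introns and exon junctions of each gene, without normalization, and the deposited RPKM and TPM values were not used. Of 51826 listed genes, 33120 have an exon length.

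Total exon reads were tested with the quasi-likelihood F test of edgeR 4.0.16 in R 4.3.3 (filterByExpr, TMM), two-sided, with Benjamini-Hochberg adjustment over all genes tested and a threshold of 0.05. F1 and F0 were fitted apart, as the methods of the study give no joint design. The interaction and F1 against F0 on the CD came from 1 fit of all 10 libraries, whose TMM factors also set the CPM. The SE is the size of the log2 fold change divided by the square root of F. Whether F0 mice shared litters is not given, nor whether the mice of each F1 group had different fathers. The p-values therefore measure the spread between these mice. No replicates were duplicates: every pair within a group differed by 4.59 to 13.1 times counting error.

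Named were the 10 members, pathway genes and regulators past the threshold in any comparison, Hsd17b12, Hacd1, Hacd2, Hacd3, Srebf1 and Mlxipl in any case, and the 5 genes most like Elovl6, Scd1 and Fads2 that averaged 10 CPM or more, some of which are not reported here. The members and lists were chosen with earlier results of these data known. Alternatives were DESeq2 1.42.0 as the test or for size factors, library sizes without TMM, other filters on low counts, unique exon reads, whole-gene reads, the replicate number as a block, the exon share as a covariate, 1 fit of all groups and each mouse left out. Junction and intron reads were added after seeing the data. The fits were tested on simulated data.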

Additional observations from a re-analysis of the deposited data

Results flagged for a closer look

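The effect of the diets on Elovl5 differed between the generations by the interaction test over all 10 libraries, with a log2 difference of −0.89 (SE 0.11, adjusted p = 0.00541, edgeR). All 3 pLPD offspring lay below the 3 offspring of CD fathers, as was so for 10.9% of all genes. Both LPD mice of F0 lay above both CD mice, as was so for 22.8% of all genes. The effect in F0 alone did not pass (0.29, adjusted p = 0.131, edgeR). The interaction value was −0.88 with DESeq2 (adjusted p = 2.78e-07). In edgeR it was −0.55 with whole-gene reads (adjusted p = 0.0688) and −0.22 with intron reads (adjusted p = 0.701). The intron fit counted reads mostly of unspliced RNA, and whether its difference from the exon fit is larger than the spread between mice was not tested.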

How the results depend on the processing

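Under the alternatives without leaving out a mouse, F1 counts over all genes moved from 164 to 341 with DESeq2, 103 with total exon reads as library size, 549 with all reads on genes as library size, 798 without a filter, 15 with the exon share as a covariate, 339 in 1 fit of all groups and 57 with intron reads, and the count of the 10 genes moved from 2 to 4 (all reads on genes), 5 (no filter), 0 (exon share), 4 (junction reads) and 0 (intron reads). In F0, 364 genes became 562 (all reads on genes), 1343 (no filter), 834 (exon share), 175 (1 fit) and 164 (junction reads), and the 1 member became 2 (exon share, Fads1 and Scd2 at −0.76) and 0 (1 fit). For the interaction, 189 genes became 341 (DESeq2), 890 (no filter) and 106 (junction reads), and the 1 member became 2 (all reads on genes, unique exon reads, exon share, junction reads), 6 (no filter) and 0 (whole-gene reads, intron reads). Between the CD mice, 2857 genes became 1606 (exon share), 1466 (junction reads) and 1776 (intron reads), and the 4 members became 2 (exon share). The deviations of same-numbered mice correlated at 0.0991, 0.0245 and −0.00656 in F1, where not every mouse correlated best with its own number. In F0 they correlated at 0.152, against −0.152 for different numbers. With 2 mice per group these values are equal and opposite by construction, so they cannot show whether F0 mice were paired. With the replicate block, 260 genes passed in F1 and 1391 in F0, where 2 members did, and 2 members passed in the interaction.

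Leaving out each mouse gave 0 to 6 members and 18 to 510 genes in F1, 0 to 1 and 107 to 475 in F0, 1 to 2 and 19 to 395 for the interaction, and 1 to 6 and 793 to 3030 between the CD mice. With all reads on genes as library size, the median of all genes shifted by −0.162 in F1, and the calls were 9 higher and 540 lower against 20 and 144. In F0 they were 181 and 381 against 172 and 192, for the interaction 27 and 215 against 54 and 135 (81 and 101 with total exon reads), and between the CD mice 797 and 1947 against 1531 and 1326.

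Signs turned only for members that had not passed the test, apart from Fads3 between the CD mice, whose intron value did not pass. In F1, the sign turned to Fads1 −0.14 and Fads3 −0.0948 with all reads on genes, Fads3 −0.0049 with whole-gene reads, Fads1 −0.0031 with the replicate block, Elovl7 −0.24 with the exon share, Fads3 −0.26, Scd1 0.69 and Tecr 0.0392 with intron reads, and the values without single mice ran from −0.0103 to 0.51 for Elovl7, −0.15 to 0.16 for Fads1, −0.0188 to 0.17 for Fads3. In F0, the sign turned to Fads2 0.0149 with whole-gene reads, Elovl6 −0.47 with the exon share, Elovl1 0.25, Elovl7 0.0397, Fads2 0.20 and Scd2 0.0989 with intron reads, and the values without single mice ran from −0.45 to 0.57 for Elovl6, −0.0849 to 0.22 for Fads3, −0.59 to 0.0765 for Scd2, −0.15 to 0.0347 for Tecr. For the interaction, the sign turned to Fads3 0.0472 with total exon reads, Fads3 0.33 with the exon share, Scd1 0.14 and Tecr 0.28 with intron reads, and the values without single mice ran from −0.17 to 0.14 for Fads3. Between the CD mice, the sign turned to Scd1 −0.0249 with all reads on genes, Elovl7 0.0683 with whole-gene reads, Scd1 −0.15 with junction reads, Elovl1 0.96, Elovl7 0.16, Fads3 0.075 and Tecr 0.25 with intron reads, and the values without single mice ran from −0.29 to 0.17 for Elovl7, −0.044 to 0.27 for Scd1. The cause was not tested. Depth limits Elovl7, with 5 to 14 exon reads per library.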
